A study of Mus musculus with 2 samples.

Results

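The genes described here are 10 of the 32285 genes counted. They encode the muscle and heart type subunits of lactate dehydrogenase (Ldha and Ldhb), the lactate transporters MCT1 and MCT4 (Slc16a1 and Slc16a3), the pyruvate dehydrogenase kinases (Pdk1, Pdk2, Pdk3 and Pdk4), a pyruvate dehydrogenase phosphatase (Pdp1) and the E1 alpha subunit of pyruvate dehydrogenase (Pdha1). They were taken by name and read in nuclei grouped by the most abundant of the Myh1, Myh2, Myh4 and Myh7 transcripts, in non-muscle nuclei, and by library. The study sequenced RNA of single nuclei from the plantaris and the gastrocnemius, both calf muscles, of wild-type C57BL/6 mice at the age of 12 weeks, with 1 library per muscle. Nuclei were freed by bead homogenization, labelled with PI and sorted before droplet capture, and neither the number of mice per library nor their sex is given in the labels.

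The plantaris library held 9156 nuclei with 29248275 UMIs (unique molecular identifiers, each marking 1 captured transcript), and the gastrocnemius library held 7374 nuclei with 19048595 UMIs. Clusters with myonuclear markers held 5804 plantaris and 5093 gastrocnemius nuclei, and named non-muscle clusters held 3205 and 1987, in the same order of libraries. The non-muscle clusters are called by the cell type whose markers they carry, as mesenchymal progenitor-like and so on. A myonucleus took the type of its most abundant Myh transcript, with no tie allowed. For this, Myh1, Myh2, Myh4 and Myh7 together had to have 3 or more UMIs, so the leading transcript alone could have fewer. This gave 569 plantaris and 174 gastrocnemius Myh2 nuclei, 764 plantaris and 131 gastrocnemius Myh1 nuclei, and 4184 plantaris and 4561 gastrocnemius Myh4 nuclei. The 6 and 22 Myh7 nuclei were too few for a comparison. Both libraries shared 17 barcodes. The doublet caller marked 0.0109% of plantaris and 0.0271% of gastrocnemius nuclei, under the 0.5% at which it is taken to have worked, so doublets remain. The median depth was 3333 UMIs per plantaris and 2851 per gastrocnemius myonucleus, and 1485 and 1201 UMIs per non-muscle nucleus of the same libraries. Myh4 nuclei fell into clusters that differ by muscle: clusters 2, 5 and 6 held 84.4% of the plantaris Myh4 nuclei, and clusters 0, 4 and 9 held 90.1% of the gastrocnemius ones.

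Lactate dehydrogenase interconverts pyruvate and lactate, and its tetramers are built from the Ldha product, which predominates in glycolytic muscle, and the Ldhb product, which predominates in heart and oxidative muscle. MCT4 is known mainly for lactate export from glycolytic fibres and MCT1 for lactate uptake into oxidative fibres. The alternative fate of pyruvate is oxidation by the mitochondrial pyruvate dehydrogenase complex, which the kinases switch off by phosphorylating its E1 alpha subunit and the phosphatases switch on again. In mouse muscle the fibres that use Myh4 (type 2B) are the most glycolytic, those that use Myh2 (type 2A) are oxidative, and those that use Myh1 (type 2X) lie between them.

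Both lactate dehydrogenase genes and both lactate transporter genes differed between Myh2 and Myh4 nuclei, in opposite directions within each pair, so stretches before a RefSeq transcript start of these 4 genes are shown. Of the 10 genes, 9 were found in the RefSeq promoter table (build GRCm38.p6); Pdp1 was not matched. Each line holds the 250 bases before the transcript start, read 5′ to 3′ on the gene's strand, in lower case with motif matches in capitals. The windows lie at chr7:46845554-46845803 (plus strand) for the first listed Ldha start, chr6:142507958-142508207 (minus strand) for Ldhb, chr3:104638414-104638663 (plus strand) for Slc16a1 and chr11:120948817-120949066 (plus strand) for Slc16a3. The Ldha and Slc16a3 windows lie inside the GENCODE spans of these genes, which start further upstream, and 14 bases of the Slc16a3 window are exonic.
Ldha: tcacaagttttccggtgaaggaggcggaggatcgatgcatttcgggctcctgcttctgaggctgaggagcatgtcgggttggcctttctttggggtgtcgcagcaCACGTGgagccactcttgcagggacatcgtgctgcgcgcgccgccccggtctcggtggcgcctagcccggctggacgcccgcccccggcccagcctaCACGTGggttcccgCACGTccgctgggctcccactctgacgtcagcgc
Ldhb: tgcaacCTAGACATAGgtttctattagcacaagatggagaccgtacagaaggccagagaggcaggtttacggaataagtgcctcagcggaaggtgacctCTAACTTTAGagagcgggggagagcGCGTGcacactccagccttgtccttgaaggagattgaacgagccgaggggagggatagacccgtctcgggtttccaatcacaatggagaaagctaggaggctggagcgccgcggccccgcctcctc
Slc16a1: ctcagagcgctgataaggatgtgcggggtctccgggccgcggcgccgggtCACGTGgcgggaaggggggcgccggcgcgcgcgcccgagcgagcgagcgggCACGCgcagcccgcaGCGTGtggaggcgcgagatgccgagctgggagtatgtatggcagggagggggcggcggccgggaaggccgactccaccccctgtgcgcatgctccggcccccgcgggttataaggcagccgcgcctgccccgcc
Slc16a3: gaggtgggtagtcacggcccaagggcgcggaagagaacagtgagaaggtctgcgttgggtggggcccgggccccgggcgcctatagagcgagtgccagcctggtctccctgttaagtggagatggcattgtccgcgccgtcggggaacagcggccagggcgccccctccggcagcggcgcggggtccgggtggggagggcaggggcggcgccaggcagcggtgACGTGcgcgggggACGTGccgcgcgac
Motifs were searched on both strands, with overlapping matches counted. They were a MEF2-like pattern (CTA and TAG separated by any 4 bases), the estrogen-related receptor element AAGGTCA and the hypoxia response core ACGTG or GCGTG. The MEF2-like pattern is looser than the MEF2 element, whose 4 middle bases are only A or T. The Ldhb window held 2 matches to the MEF2-like pattern, 244 and 151 bases before the start. Both hold G or C among the 4 middle bases, so neither matches the stricter MEF2 element. None of the other windows of the 9 genes held a match to the pattern, and 3.22% of 32536 windows of this length hold at least 1. The hypoxia response core is common, being present in 38.8% of windows, and it was matched in all 4 windows shown. The estrogen-related receptor element, present in 4.09% of windows, was matched in none of the 9 genes' windows. A match is a description of letters and says nothing of binding.

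Between Myh2 and Myh4 nuclei, Ldhb and Slc16a1 were higher and Ldha and Slc16a3 lower in Myh2 nuclei, and Pdha1 was also higher. Myh1 nuclei differed from Myh4 nuclei in the same 5 genes and directions. UMIs were summed per type and library and the 6 sums were tested with edgeR's quasi-likelihood test, with the library as a block and Benjamini-Hochberg adjustment over 9432 genes. At an adjusted p under 0.05, 5 of the 9 members tested were called between Myh2 and Myh4 nuclei, 3 higher and 2 lower in Myh2 nuclei, against 21.8% of all genes, with 12.1% higher and 9.64% lower. Between Myh1 and Myh4 nuclei 5 of 9 were called, 3 higher and 2 lower in Myh1 nuclei, against 11.7% of all genes, with 7.1% higher and 4.63% lower. Between Myh2 and Myh1 nuclei 2 of 9 were called, Ldhb as higher and Slc16a3 as lower in Myh2 nuclei, against 1.51% of all genes, with 0.7% higher and 0.806% lower. Pdk3 did not pass the filter on low counts. Only 2 libraries, from different muscles, stand behind each type, and the labels do not say how many animals they hold. The block takes out differences in level between the libraries. These p-values therefore rest on how far the type differences vary between 2 libraries. The spread of each gene was also drawn toward that of all genes (2 residual and 11.6 prior degrees of freedom).

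**Figure D1:**
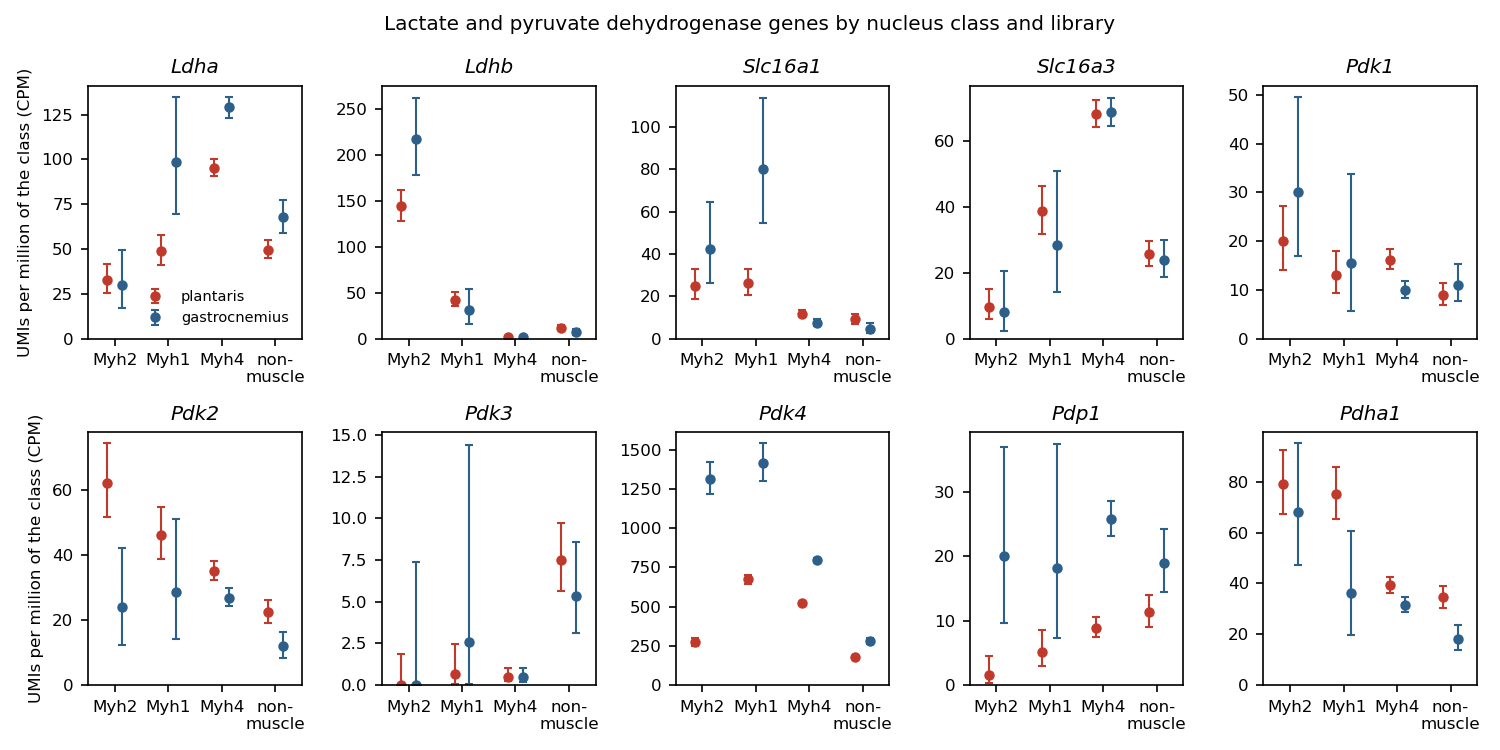
Level of each gene in Myh2, Myh1, Myh4 and non-muscle nuclei, in CPM (the share of the class's UMIs, scaled to 1000000), with plantaris in red and gastrocnemius in blue; points are the summed level of 1 library and bars its exact 95% Poisson interval, which covers counting error only. Ldhb is highest in Myh2 nuclei of both libraries (144 and 217 CPM), Ldha and Slc16a3 are highest in Myh4 nuclei, and Pdk3 is highest in non-muscle nuclei.

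**Figure D2:**
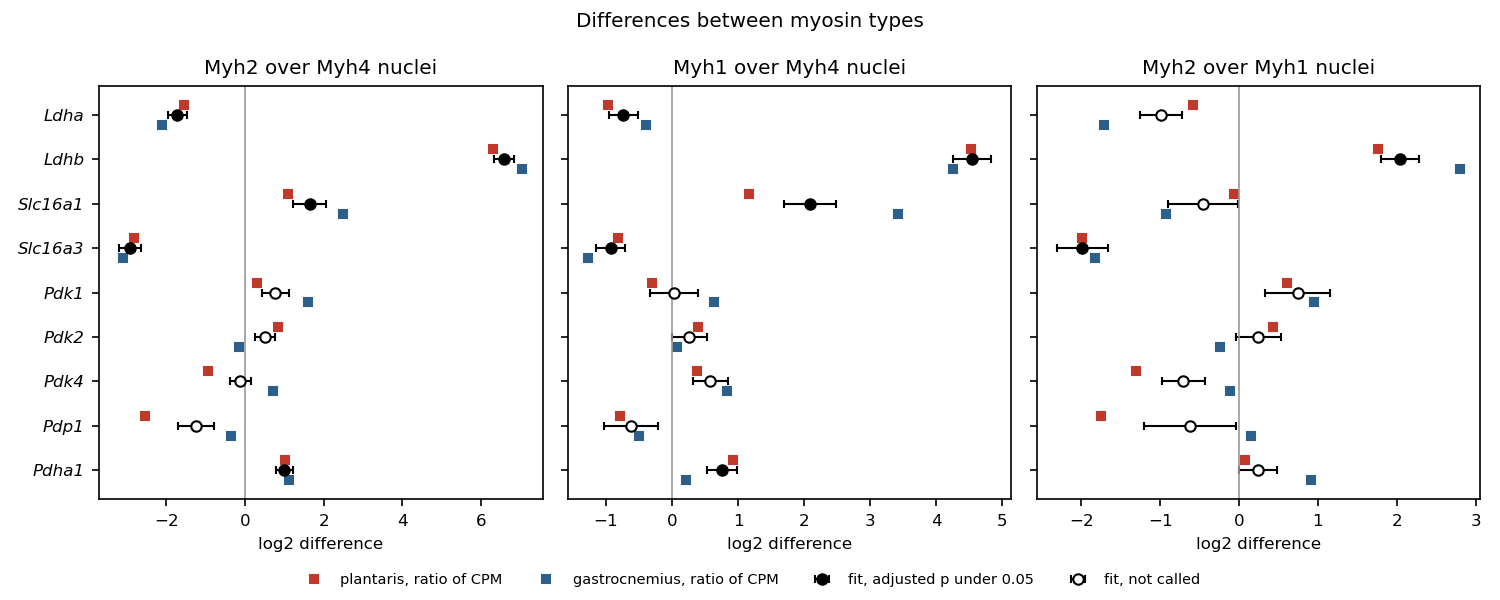
log2 differences between myosin types for 9 genes. Circles are the edgeR estimates over both libraries, filled where the adjusted p was under 0.05, with standard errors derived from the F statistic. Squares are the ratios of CPM within the plantaris (red) and gastrocnemius (blue) library. Ldhb lies 6.59 above 0 in Myh2 over Myh4 nuclei, Slc16a3 lies 2.91 below it, and the Pdk4 squares lie on opposite sides of 0.

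Ldhb (chr6:142490249-142507957 in mm10, minus strand) encodes the heart type subunit. It stood at 144 CPM in plantaris and 217 CPM in gastrocnemius Myh2 nuclei, at 42.4 and 31.1 CPM in Myh1 nuclei of these libraries, and at 1.83 and 1.63 CPM in Myh4 nuclei, where it rested on 29 and 23 UMIs. The 3 types did not overlap: each library had the order Myh2, Myh1, Myh4, and no exact 95% interval of one type reached that of the next. The log2 difference was 6.59 ± 0.26 (SE) between Myh2 and Myh4 nuclei (edgeR adjusted p = 2.82e-09), 4.54 ± 0.29 between Myh1 and Myh4 nuclei (edgeR adjusted p = 5.29e-07) and 2.04 ± 0.24 between Myh2 and Myh1 nuclei (edgeR adjusted p = 0.000619). Without the library block the difference between Myh2 and Myh1 nuclei was no longer called (edgeR adjusted p = 0.0835).

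Ldha (chr7:46841475-46855627, plus strand), the muscle type subunit, ran the other way. It stood at 32.7 CPM in plantaris and 30.1 CPM in gastrocnemius Myh2 nuclei, at 48.9 and 98.4 CPM in Myh1 nuclei, and at 95.2 and 129 CPM in Myh4 nuclei of the same libraries. Both Myh2 values lie below all Myh1 and Myh4 values, while the gastrocnemius Myh1 value lies above the plantaris Myh4 value. Ldha fell by 1.72 ± 0.24 on the log2 scale in Myh2 relative to Myh4 nuclei (edgeR adjusted p = 0.000126) and by 0.74 ± 0.22 in Myh1 relative to Myh4 nuclei (edgeR adjusted p = 0.0479). The Myh1 call was lost in 4 of 8 alternatives, with an adjusted p of 0.0742 to 0.366, and Myh2 and Myh1 nuclei were not called different (log2 difference -0.99 ± 0.27, edgeR adjusted p = 0.118), except with no filter on low counts (edgeR adjusted p = 0.0245). The annotation lists 2 pseudogenes named after Ldha, and how reads shared with such copies were counted is not given in the sources used here.

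Of the 2 transporters, Slc16a3 (chr11:120948480-120960868, plus strand), which encodes MCT4, had 9.70 CPM in plantaris and 8.03 CPM in gastrocnemius Myh2 nuclei, from 19 and 4 UMIs. It had 38.6 and 28.5 CPM in Myh1 nuclei and 68.2 and 68.7 CPM in Myh4 nuclei of the same libraries, so the order was the same in both muscles although the gastrocnemius Myh2 and Myh1 intervals overlap, and the Myh4 values of both muscles differed by less than their intervals. Slc16a3 fell by 2.91 ± 0.28 on the log2 scale in Myh2 relative to Myh4 nuclei (edgeR adjusted p = 3.88e-06), by 0.93 ± 0.22 in Myh1 relative to Myh4 nuclei (edgeR adjusted p = 0.0127), and by 1.99 ± 0.32 in Myh2 relative to Myh1 nuclei (edgeR adjusted p = 0.00657). The Myh1 to Myh4 call was lost in 3 of 8 alternatives (adjusted p up to 0.109), and the Myh2 to Myh1 call without the block (0.115) and with nuclei thinned to 1000 UMIs (0.687).

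Slc16a1 (chr3:104638668-104658462, plus strand), which encodes MCT1, had 25.0 CPM in plantaris and 42.1 CPM in gastrocnemius Myh2 nuclei, 26.2 and 80.3 CPM in Myh1 nuclei, and 11.7 and 7.51 CPM in Myh4 nuclei. Every Myh2 and Myh1 value lies above both Myh4 values. Within libraries the log2 ratio was 1.10 in plantaris and 2.49 in gastrocnemius for Myh2 over Myh4 nuclei, and 1.16 and 3.42 for Myh1 over Myh4 nuclei. Slc16a1 rose by 1.64 ± 0.41 on the log2 scale in Myh2 relative to Myh4 nuclei (edgeR adjusted p = 0.0100) and by 2.10 ± 0.40 in Myh1 relative to Myh4 nuclei (edgeR adjusted p = 0.00258). Myh2 and Myh1 nuclei were not called different (-0.45 ± 0.44, edgeR adjusted p = 0.874), and the highest value was in gastrocnemius Myh1 nuclei, from 31 UMIs. The Myh2 to Myh4 call was lost without the block (0.0811) and with only the purest nuclei of each type (0.171), and the Myh1 to Myh4 call without the block (0.0545).

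Nuclei with 2 myosins were read as classes between the pure types. Pure nuclei have 10 or more Myh UMIs with 80% or more from 1 gene, and mixed nuclei have 20% or more from each of 2. In plantaris, Ldhb took 80.4% of the UMIs of Ldha and Ldhb together in pure Myh2 nuclei (exact 95% interval 71.1 to 87.8), 89.8% in mixed Myh1/Myh2 nuclei (84.5 to 93.7), 37.4% in pure Myh1 nuclei (29.1 to 46.3), 9.33% in mixed Myh1/Myh4 nuclei and 1.09% in pure Myh4 nuclei (0.582 to 1.86). In gastrocnemius, with far fewer mixed nuclei, the shares were 89.5%, 73.3%, 22.2%, 18.8% and 0.732% in the same classes. Pure Myh2 nuclei held more Ldhb than pure Myh1 nuclei, and these more than pure Myh4 nuclei, in both libraries with intervals that do not overlap. The mixed Myh1/Myh2 interval overlaps that of pure Myh2 nuclei in both libraries, and the gastrocnemius mixed Myh1/Myh4 interval overlaps that of pure Myh1 nuclei. These are shares of UMIs, not of transcript levels per length, and are read only between classes of nuclei.

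The transporter shares of the pure types were ordered in a similar way in plantaris. There, Slc16a1 took 78.9% of the Slc16a1 and Slc16a3 UMIs in pure Myh2 nuclei, 65.7% in mixed Myh1/Myh2 nuclei, 42.4% in pure Myh1 nuclei, 35.8% in mixed Myh1/Myh4 nuclei and 13.4% in pure Myh4 nuclei. The first rests on 19 UMIs (exact 95% interval 54.4 to 93.9) and the share in mixed Myh1/Myh2 nuclei on 35 UMIs (47.8 to 80.9), so these 2 intervals overlap. The plantaris pure Myh1 interval, from 42 Slc16a1 and 57 Slc16a3 UMIs, also overlaps that of mixed Myh1/Myh2 nuclei. It contains the share of mixed Myh1/Myh4 nuclei as well. The gastrocnemius shares were 80%, 87.5%, 71.4%, 50% and 9.42%, but each of the first 4 rests on 21 or fewer UMIs. Mixed Myh2/Myh4 nuclei held 44.7% (plantaris) and 62.5% (gastrocnemius) Ldhb, between the pure classes, and doublets of a Myh2 and a Myh4 nucleus cannot be told apart from hybrid nuclei here.

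**Figure D3:**
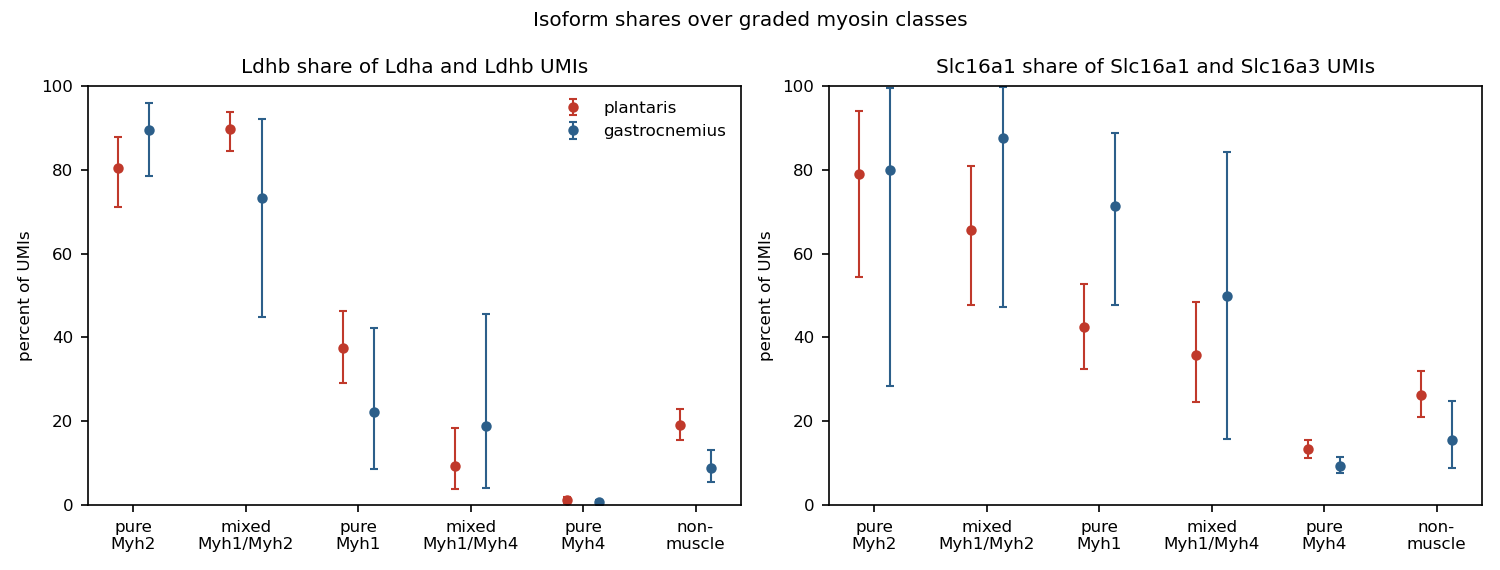
Share of Ldhb in the UMIs of both lactate dehydrogenase genes (left) and of Slc16a1 in the UMIs of both transporter genes (right), in percent, from pure Myh2 to pure Myh4 nuclei and in non-muscle nuclei; plantaris is red, gastrocnemius blue, and bars are exact 95% Clopper-Pearson intervals. The Ldhb share is 80.4% and 89.5% in pure Myh2 nuclei and about 1% in pure Myh4 nuclei.

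Pdk4 (chr6:5483351-5496309, minus strand), the kinase known to be induced by fasting and fatty acids, was ordered differently over the myosin types in the 2 muscles. In plantaris it stood at 273 CPM in Myh2, 673 CPM in Myh1 and 520.4 CPM in Myh4 nuclei. In gastrocnemius it stood at 1316 CPM in Myh2, 1419 CPM in Myh1 and 799 CPM in Myh4 nuclei. Myh2 nuclei were the lowest of the types in plantaris, while in gastrocnemius their interval overlaps that of Myh1 nuclei, the highest. The log2 ratio of Myh2 over Myh4 was -0.93 (exact 95% interval -1.06 to -0.81) in plantaris and 0.72 (0.60 to 0.83) in gastrocnemius. Over both libraries no type difference was called for Pdk4 (Myh2 to Myh4 -0.12 ± 0.27, edgeR adjusted p = 0.814; Myh1 to Myh4 0.58 ± 0.26, edgeR adjusted p = 0.206).

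Pdk2 (chr11:95026258-95041354, minus strand), the kinase most widely expressed across tissues, had 62.3 CPM in plantaris and 24.1 CPM in gastrocnemius Myh2 nuclei, 46.2 and 28.5 CPM in Myh1 nuclei, and 35.1 and 26.9 CPM in Myh4 nuclei. The plantaris Myh2 and Myh1 intervals overlap and lie above the Myh4 interval, the gastrocnemius intervals all overlap, and no type difference was called (Myh2 to Myh4 0.51 ± 0.26, edgeR adjusted p = 0.195). An antisense gene, Gm11513, lies on the opposite strand over 5525 bases of Pdk2, and whether counting used strand is not given in the sources used here. Pdk2 took 17.6% of the UMIs of the 4 kinases in plantaris Myh2 nuclei (exact 95% interval 14.8 to 20.6) against 6.14% in plantaris Myh4 nuclei, and 1.76% in gastrocnemius Myh2 nuclei against 3.22% in gastrocnemius Myh4 nuclei. The gastrocnemius Myh2 share rests on 12 Pdk2 UMIs. These shares also vary with Pdk4, which stood at 273 CPM in plantaris and 1316 CPM in gastrocnemius Myh2 nuclei.

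Pdk1, a target of the hypoxia response, had 19.9 and 30.1 CPM in Myh2 nuclei of plantaris and gastrocnemius, 13.1 and 15.5 CPM in Myh1 nuclei, and 16.2 and 9.98 CPM in Myh4 nuclei. The Myh2 value is the highest in each library, with an interval that overlaps that of Myh1 nuclei in both, and no difference was called (Myh2 to Myh4 0.77 ± 0.34, edgeR adjusted p = 0.130). Pdk3, an X-linked kinase gene, was near the limit of detection in myonuclei, with 10 UMIs in all plantaris and 8 in all gastrocnemius myonuclei. No UMI fell in Myh2 nuclei, which allows up to 1.53 CPM in plantaris and 6.02 CPM in gastrocnemius at 3 counts.

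Pdp1 (chr4:11958184-11966452, minus strand), the phosphatase catalytic subunit that is stimulated by calcium and predominates in muscle, had 1.53 CPM in plantaris and 20.1 CPM in gastrocnemius Myh2 nuclei, from 3 and 10 UMIs. It had 5.17 and 18.1 CPM in Myh1 nuclei and 8.91 and 25.7 CPM in Myh4 nuclei. In each type the plantaris value is below the gastrocnemius value, and no type difference was called (Myh2 to Myh4 -1.24 ± 0.46, edgeR adjusted p = 0.0724). That difference was called with no filter on low counts (adjusted p = 0.0205) and with nuclei thinned to 1000 UMIs (adjusted p = 0.0470), with its largest size -2.38 when thinned.

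Pdha1 (chrX:160122209-160138413, minus strand), the subunit that the kinases phosphorylate, had 79.2 CPM in plantaris and 68.2 CPM in gastrocnemius Myh2 nuclei, 75.1 and 36.2 CPM in Myh1 nuclei, and 39.4 and 31.4 CPM in Myh4 nuclei. Both Myh2 values lie above both Myh4 values, and the gastrocnemius Myh1 value, from 14 UMIs, lies between the Myh4 values. Pdha1 rose by 0.995 ± 0.218 on the log2 scale in Myh2 relative to Myh4 nuclei (edgeR adjusted p = 0.00416) and by 0.76 ± 0.22 in Myh1 relative to Myh4 nuclei (edgeR adjusted p = 0.0409). Within libraries the Myh1 to Myh4 log2 ratio was 0.93 in plantaris and 0.21 in gastrocnemius. The Myh2 call was lost without the block (0.0581) and in the purest nuclei (0.0509), and the Myh1 call in 5 of 8 alternatives (adjusted p up to 0.309). Map3k15 overlaps 1143 bases of Pdha1 on the opposite strand.

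Other genes of the pathway were counted by list. Of 11 genes of the pyruvate dehydrogenase complex and pyruvate entry, 9 were tested between Myh2 and Myh4 nuclei, and 5 were higher and 1 lower in Myh2 nuclei, with a median log2 difference of 0.64. Over all 9432 genes the median was -0.03, with 12.1% higher and 9.64% lower. Mpc1, a subunit of the mitochondrial pyruvate carrier, rose by 1.09 ± 0.18 (edgeR adjusted p = 0.000404) and Dlat, the E2 subunit, by 0.88 ± 0.18 (edgeR adjusted p = 0.00242). Pdhb, the E1 beta subunit, rose by 0.79 ± 0.22 (edgeR adjusted p = 0.0178), while Pcx, pyruvate carboxylase, fell by 1.11 ± 0.18 (edgeR adjusted p = 0.000536). Between Myh1 and Myh4 nuclei 2 were higher and 1 lower, with a median of 0.51 against -0.02 over all genes, of which 7.1% were higher and 4.63% lower. Between Myh2 and Myh1 nuclei none was called by edgeR, where 1.51% of all genes were, and none had an unadjusted p under 0.05.

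Of 10 genes of glycolysis that lead to pyruvate, 7 were lower and 1 higher in Myh2 than in Myh4 nuclei, with a median of -0.97 against -0.03 over all genes, of which 9.64% were lower and 12.1% higher. Pgk1, phosphoglycerate kinase, fell by 1.36 ± 0.29 (edgeR adjusted p = 0.00318), Gpi1, glucose phosphate isomerase, by 1.31 ± 0.19 (edgeR adjusted p = 0.000148), Aldoa, aldolase, by 1.28 ± 0.19 (edgeR adjusted p = 0.000201) and Gapdh by 1.24 ± 0.38 (edgeR adjusted p = 0.0309). The gene that rose was the hexokinase gene Hk2. In Myh1 relative to Myh4 nuclei 2 were lower and 1 higher, with a median of -0.39, where 4.63% of all genes were lower and 7.1% higher. Between Myh2 and Myh1 nuclei the median was -0.49 and none was called by edgeR, where 1.51% of all genes were. Of the 10 genes, 6 had an unadjusted edgeR p under 0.05 there.

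Of 9 genes for other monocarboxylate carriers, MCT partners and pyruvate or lactate enzymes, 7 were tested, and 3 were higher and 3 lower in Myh2 than in Myh4 nuclei, with a median of 0.24, beside 12.1% higher, 9.64% lower and a median of -0.03 over all genes. Gpt2, the mitochondrial alanine aminotransferase, fell by 2.92 ± 0.20 (edgeR adjusted p = 1.67e-07) and stood at 56.7 and 44.1 CPM in plantaris and gastrocnemius Myh2 nuclei, against 398 and 358 CPM in Myh4 nuclei. Slc16a10, an aromatic amino acid carrier of the same family, fell by 1.75 ± 0.22 (edgeR adjusted p = 4.65e-05). Slc16a6, another carrier of the family, rose by 1.38 ± 0.33 (edgeR adjusted p = 0.00728). Slc16a7, which encodes MCT2, rose by 4.18 ± 0.80 (edgeR adjusted p = 0.00162), but on 12 and 4 UMIs in Myh2 nuclei, and it was at 24.0 and 22.6 CPM in non-muscle nuclei. Bsg, basigin, which carries MCT1 and MCT4 to the membrane, fell by 0.80 ± 0.23 (edgeR adjusted p = 0.0221). Between Myh1 and Myh4 nuclei 3 were lower and none higher, where 4.63% and 7.1% of all genes were. Between Myh2 and Myh1 nuclei Gpt2 alone was called, lower in Myh2 nuclei, where 0.806% of all genes were lower and 0.7% higher.

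With 1 library per muscle, plantaris and gastrocnemius were compared by ratios of CPM with exact 95% intervals that cover counting error only, and no test is possible; a gene counts as past 2-fold at a log2 ratio of 1 or more either way with 20 or more UMIs. Muscle, library, animals and preparation cannot be told apart. Over all myonuclei, Pdp1 alone of the 9 members with enough UMIs was past 2-fold, lower in plantaris, where 11.5% of all genes were past it, 9.14% higher and 2.36% lower. Pdp1 had 7.60 CPM in plantaris and 25.5 CPM in gastrocnemius myonuclei, a log2 ratio of -1.75 (-2.02 to -1.48), against a median of 0.18 over all genes. Pdk4 (-0.71) and Ldha (-0.60) were also lower in plantaris, with intervals that exclude 0. Pdk1 (0.54, 0.27 to 0.81), Pdk2 (0.57, 0.40 to 0.74) and Pdha1 (0.58, 0.42 to 0.73) were higher in plantaris, with intervals that exclude 0. Pdk3, from 10 UMIs in plantaris and 8 in gastrocnemius, had a ratio of -0.15 (-1.64 to 1.40), too few UMIs for the fold rule. Scaling by median-ratio size factors moved the median of all genes by more than 0.1, to 0.02, and left Pdp1 at -1.91 and Pdk4 at -0.86.

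The 2 libraries differ in the myosin makeup of their myonuclei. Ldhb had 21.9 CPM in plantaris and 12.1 CPM in gastrocnemius myonuclei (log2 ratio 0.86), and Slc16a1 had 15.7 and 11.0 CPM (0.51). When gastrocnemius myonuclei were reweighted to the Myh composition of plantaris, both ratios changed sign, to -0.34 for Ldhb and -0.40 for Slc16a1, and so did that of Slc16a3, at 0.02 in place of -0.17. Ldha (-0.48) and Pdk4 (-0.86) kept their direction but, like these 3, lay outside the counting interval of the ratio without reweighting. Pdp1 stood at -1.69, within it.

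Within Myh4 nuclei, Pdp1 was again the only member past 2-fold (8.91 CPM in plantaris and 25.7 CPM in gastrocnemius, log2 ratio -1.53, interval -1.82 to -1.24), where 11.0% of all genes were past it, 8.85% higher and 2.16% lower. Pdk4 had 520.4 CPM in plantaris and 799 CPM in gastrocnemius Myh4 nuclei (-0.62), and Ldha 95.2 and 129 CPM (-0.44), while Slc16a3 was near equal (-0.01, -0.14 to 0.12). Pdk1 (0.70) and Pdk2 (0.38) were higher in plantaris Myh4 nuclei with intervals that exclude 0, and the interval of Ldhb (0.17, -0.67 to 1.03) includes 0. Because different clusters hold most Myh4 nuclei of each muscle, the same nuclei were also read cluster by cluster. Pdp1 and Pdk4 were lower in plantaris in 9 of 9 clusters, although Pdp1 reached 20 UMIs in 7 of them. Pdha1, at 0.32 over all Myh4 nuclei, was lower in plantaris in 7 of 9 clusters, and Slc16a1, at 0.64 over all Myh4 nuclei, in 5 of 9, and was higher in 3, so the direction over all Myh4 nuclei was not that of most clusters for either gene. Pdk1 and Pdk2 were higher in plantaris in 7 of 9 clusters each, and Ldha was lower in 6 and higher in 3. Pdk1 reached 20 UMIs in 5 clusters, Pdk2 and Slc16a1 in 7, Pdha1 in 8 and Ldha in 9. These directions are signs of CPM differences without intervals, and they were not set against all genes. The clusters are parts of the same 2 libraries and not replicates. Some hold few nuclei of 1 muscle, such as 11 gastrocnemius Myh4 nuclei in cluster 6 and 34 in cluster 5.

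**Figure D4:**
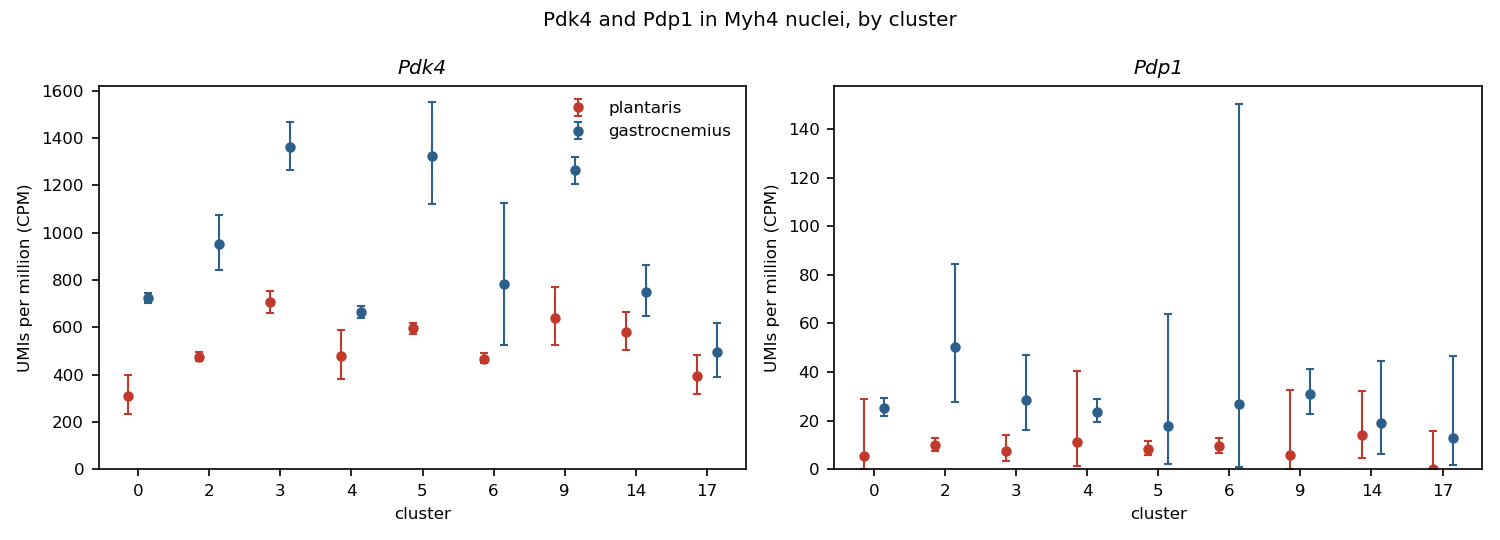
Pdk4 (left) and Pdp1 (right) in Myh4 nuclei of each cluster, in CPM, with plantaris in red and gastrocnemius in blue; points are summed levels and bars exact 95% Poisson intervals. Both genes are lower in plantaris in all 9 clusters, and the wide Pdp1 intervals mark clusters with few nuclei of one muscle.

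Within Myh1 nuclei, 5 members were past 2-fold, 4 of them lower in plantaris, where 17.1% of all genes were past it, 12.9% higher and 4.21% lower. These were Pdp1 (5.17 CPM in plantaris and 18.1 CPM in gastrocnemius, -1.81), Slc16a1 (26.2 and 80.3 CPM, -1.62), Pdk4 (673 and 1419 CPM, -1.07) and Ldha (48.9 and 98.4 CPM, -1.01), while Pdha1 was higher in plantaris (75.1 and 36.2 CPM, 1.05). The gastrocnemius Myh1 sum holds 131 nuclei, and Pdp1 rests on 7 UMIs and Pdha1 on 14 UMIs there. The intervals of Ldhb (0.45, -0.41 to 1.44), Slc16a3 (0.44, -0.46 to 1.48), Pdk1 (-0.25, -1.50 to 1.29) and Pdk2 (0.70, -0.19 to 1.73) include 0. Ldha was short of 2-fold in 4 alternatives, with median-ratio size factors (-0.97), with the mean over single nuclei (-0.93), when nuclei were thinned to 1000 UMIs (-0.10) and in the purest nuclei (-0.83), and Pdp1 (-0.92) and Pdk4 (-0.99) were so in the purest nuclei.

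Within Myh2 nuclei, 2 of 8 members were past 2-fold, 1 in each direction, where 13.6% of all genes were, 8.78% higher and 4.86% lower in plantaris. Pdk4 was lower in plantaris (273 CPM against 1316 CPM in gastrocnemius), and Pdk2 was higher, at 62.3 CPM in plantaris and 24.1 CPM in gastrocnemius (log2 ratio 1.37, 0.52 to 2.36), with a range of 0.90 to 1.46 over the alternatives. Most Myh2 nuclei, 454 in plantaris and 163 in gastrocnemius, were in cluster 7, and within it Pdk4 had 255 CPM in plantaris and 1283 CPM in gastrocnemius (-2.33, -2.52 to -2.15) and Pdk2 had 62.5 and 23.1 CPM (1.44, 0.54 to 2.49). After thinning every nucleus to 1000 UMIs, 21.5% of plantaris and 67.7% of gastrocnemius Myh2 nuclei had a Pdk4 UMI, against 10.4% and 16.3% of non-muscle nuclei; without thinning the shares were 40.2% and 83.3% of Myh2 nuclei and 18.2% and 23.2% of non-muscle nuclei. In each library the Myh2 share is above the share in non-muscle nuclei. Thinning left out 26 plantaris and 16 gastrocnemius Myh2 nuclei and 876 and 745 non-muscle nuclei as shallower. Ldhb was lower in plantaris Myh2 nuclei (-0.59, -0.91 to -0.26), while the intervals of Ldha (0.12), Slc16a1 (-0.75), Slc16a3 (0.27), Pdk1 (-0.60) and Pdha1 (0.21) include 0. Pdk1 was past 2-fold, lower in plantaris, in the purest Myh2 nuclei (-1.46), where Pdk2 was short of it. Pdp1 had too few UMIs for the fold rule in Myh2 nuclei, and its ratio from 3 and 10 UMIs was -3.71 (-6.21 to -1.75).

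**Figure D5:**
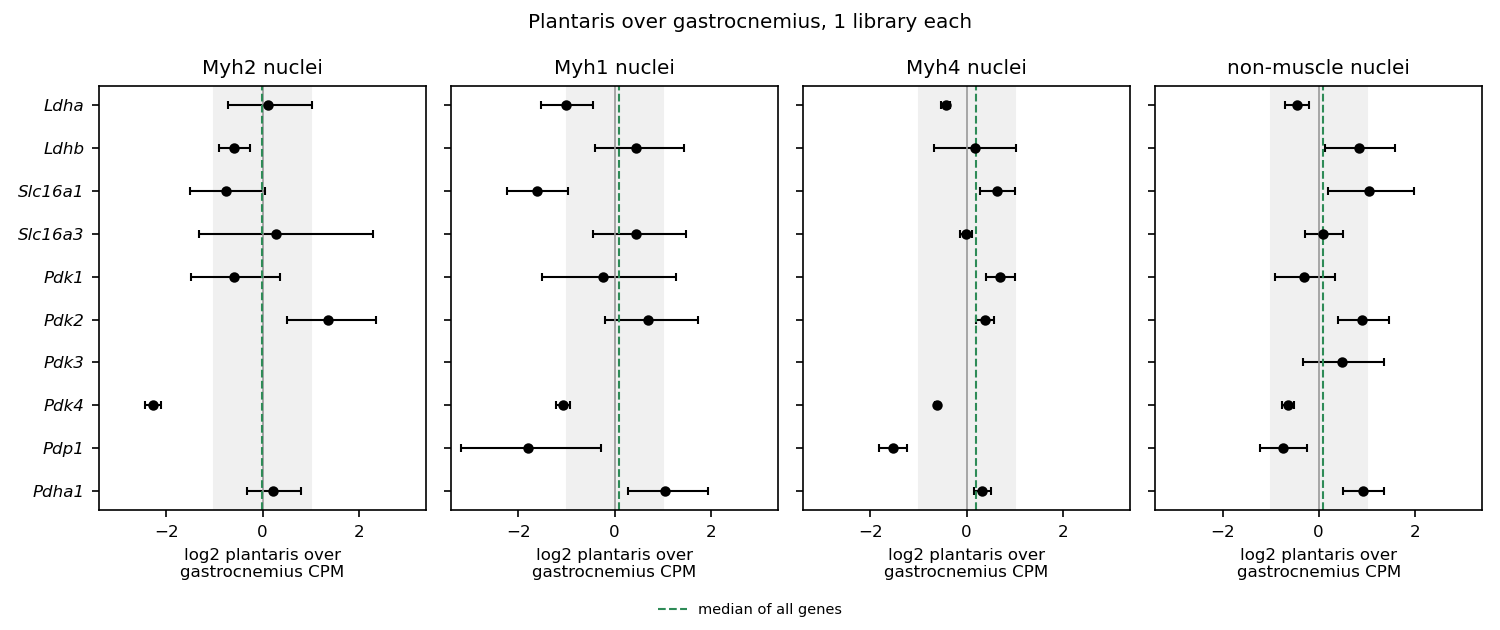
log2 ratio of plantaris over gastrocnemius CPM in Myh2, Myh1, Myh4 and non-muscle nuclei for members with 20 or more UMIs; bars are exact 95% intervals for counting error, the grey band marks ratios within 2-fold, and the dashed line is the median of all genes. Pdk4 lies left of 0 in all 4 classes, at -2.27 in Myh2 and -0.62 in Myh4 nuclei.

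The pathway lists were also read between the muscles. Over all myonuclei 11.5% of all genes were past 2-fold, 9.14% higher and 2.36% lower in plantaris. The 10 glycolysis genes had a median log2 ratio of -0.47 there, against 0.18 over all genes. Of them 1 was past 2-fold, Pgk1, lower in plantaris (-1.24). The transport list, which also holds the pyruvate and lactate enzymes, had 7 genes with enough UMIs and a median of 1.02. Of these 4 were past 2-fold, all higher in plantaris. They were the cytosolic alanine aminotransferase gene Gpt (2.13), Slc16a6 (1.22), Slc16a7 (1.05) and the D-lactate dehydrogenase gene Ldhd (1.02). Slc16a7 rests on 23 UMIs in plantaris and 8 in gastrocnemius, and its interval (-0.16 to 2.43) includes 0. The 11 complex genes had a median of 0.07, with 1 past 2-fold, the second phosphatase gene Pdp2, lower in plantaris (-1.23, from 10 UMIs in plantaris and 17 in gastrocnemius). Within Myh4 nuclei the medians were -0.35, 1.01 and 0.21, in the order glycolysis, transport, complex, against 0.20 over all genes.

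Myonuclei were compared with non-muscle nuclei within each library. A gene was past 2-fold where its ratio was so in both libraries in the same direction with 20 or more UMIs in each; 34.6% of all genes were past it, 6.96% higher and 27.6% lower in myonuclei. Of the members, Pdk4 (513 CPM in plantaris myonuclei and 178 CPM in plantaris non-muscle nuclei; 837 and 278 CPM in gastrocnemius) and Slc16a3 (57.8 and 25.6 CPM; 64.9 and 23.9 CPM) were higher in myonuclei. Pdk3 was lower, at 0.469 CPM in myonuclei and 7.47 CPM in non-muscle nuclei of plantaris and at 0.520 and 5.34 CPM in gastrocnemius, with log2 ratios of -3.99 and -3.36. The log2 ratios of the other members in plantaris and gastrocnemius were 0.73 and 0.87 for Ldha, 0.90 and 0.87 for Ldhb, 0.79 and 1.32 for Slc16a1, 0.85 and 0.01 for Pdk1, 0.82 and 1.16 for Pdk2, -0.58 and 0.44 for Pdp1 and 0.50 and 0.84 for Pdha1. With median-ratio size factors Ldha (1.10 in plantaris and 1.27 in gastrocnemius), Ldhb (1.27 and 1.28), Slc16a1 (1.16 and 1.72) and Pdk2 (1.19 and 1.57) also had log2 ratios above 1 in both libraries. So did Ldha, Ldhb, Pdk2 and Pdha1 with nuclei thinned to 1000 UMIs, Slc16a1 and Pdk2 with the mean over single nuclei, and Ldhb, Slc16a1 and Pdk2 without the highest doublet scores. Most non-muscle Pdk3 UMIs came from mesenchymal progenitor-like nuclei, 41 of 56 in plantaris and 15 of 17 in gastrocnemius, a class that also held 2052 of 3205 and 1396 of 1987 non-muscle nuclei.

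Transcripts of myonuclear markers were also counted in non-muscle nuclei. The CPM of 10 myonuclear markers in non-muscle nuclei was 34.5% to 185% of that in myonuclei in plantaris (median 42.8%) and 29.6% to 116% in gastrocnemius (median 37.8%). Pdk4 and Slc16a3, at 33.3% to 44.4%, lie near these medians, and Ldha and Ldhb stood at 53.7% to 60.4%. The highest marker in both libraries was Acta1. With nuclei thinned to 1000 UMIs, the log2 ratio of myonuclei over non-muscle nuclei was 1.02 in plantaris and 1.11 in gastrocnemius for Ldha, and 1.47 and 3.07 for Ldhb. The Ldhb share of Ldha and Ldhb UMIs was 19.1% in plantaris non-muscle nuclei and 21.0% in plantaris myonuclei, and 8.86% in gastrocnemius non-muscle nuclei and 8.87% in gastrocnemius myonuclei, where the non-muscle share rests on 21 Ldhb UMIs. Pdk3 stood at 1593% and 1029% of its myonuclear CPM. The part of free RNA in these non-muscle values was not tested. Between the muscles, Slc16a1 alone of the 10 members was past 2-fold in non-muscle nuclei, where 8.44% of all genes were, 6.15% higher and 2.29% lower in plantaris (9.08 CPM in plantaris and 4.40 CPM in gastrocnemius, log2 ratio 1.04, 0.20 to 1.99). It was short of 2-fold in 4 alternatives, at 0.31 to 0.98, and rests on 14 UMIs in gastrocnemius. The other ratios were -0.45 for Ldha, 0.83 for Ldhb, 0.10 for Slc16a3, -0.30 for Pdk1, 0.91 for Pdk2, 0.48 for Pdk3, -0.64 for Pdk4, -0.73 for Pdp1 and 0.92 for Pdha1. With nuclei thinned to 1000 UMIs the ratio was 2.34 for Ldhb and 1.28 for Pdha1. For Ldhb the counting interval without thinning was 0.13 to 1.59, from 88 UMIs in plantaris and 21 in gastrocnemius, and thinning leaves fewer. Ldhb in Myh4 nuclei, at 1.83 CPM in plantaris and 1.63 CPM in gastrocnemius, was below its level in non-muscle nuclei (11.7 and 6.60 CPM), whose median depth is lower.

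Among myonuclei with markers of specialized sites, neuromuscular junction-like nuclei (80 in plantaris and 65 in gastrocnemius) had no Slc16a1 UMI in either library. This allows up to 9.46 CPM in plantaris, below the 15.7 CPM of all plantaris myonuclei, and up to 17.8 CPM in gastrocnemius, where a difference from 11.0 CPM was not detectable at this depth. Slc16a3 was at 15.8 CPM in plantaris and 41.5 CPM in gastrocnemius nuclei of this class, from 5 and 7 UMIs, and Ldha at 113 and 166 CPM. Myotendinous junction-like nuclei had 29.7 CPM of Slc16a1 in plantaris and 19.6 CPM in gastrocnemius.

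As a description of which genes vary in the same way, Pearson's r of log2(CPM + 1) was taken over 21 profiles of a nucleus class in a library, among 9978 genes. The profiles overlap in nuclei, share 2 libraries and differ in depth, so r is given with no test. Ldhb was most like Myh2 (r = 0.89), which itself defines a class, the fatty acid oxidation gene Acadm (0.85) and Ube2h (0.84). Ldha was most like Smox (0.84), Tmem233 (0.84) and Sppl2a (0.82), Slc16a1 most like Me3 (0.85), Chp1 (0.84) and Mical3 (0.84), and Slc16a3 most like Pdcd2l (0.86), Rtn2 (0.86) and Raet1e (0.84). Pdk4 was most like Fbxo40 (0.95), Cpeb4 (0.91) and Pde7a (0.89).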

How the data were processed

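The deposited table holds UMI counts per gene and nucleus for both libraries, with a table that names the library of each barcode; per the labels' protocols a 10x Chromium 3' kit was used, and per the submitters' processing notes Cell Ranger 6.0.1 and mm10 were used. Whether intronic reads were counted is not given in the sources used here. Nuclei with under 200 genes or over 5% mitochondrial UMIs were left out, which kept 9150 plantaris and 7374 gastrocnemius nuclei, less 3 marked as doublets. Nuclei were clustered with scanpy 1.11.5 (2000 variable genes, 30 principal components, 15 neighbours, Leiden resolution 1) into 22 clusters, and clusters were named from marker lists with cut-offs set while naming them; 140 plantaris and 292 gastrocnemius nuclei stayed unnamed and unused. Counts were summed per class and library. For levels and ratios the sums were scaled to a total of 1000000 (CPM). The unscaled sums per Myh type were tested with edgeR 4.0.16 (TMM, filterByExpr, library as block). DESeq2 1.42.0 was an alternative. On simulated data for Myh2 and Myh4 nuclei, with 200 of 9432 genes changed, the test recovered 36% of changes of log2 size 1 and 90% of size 2, with 3 false calls. The simulation used the same spread for every gene and no difference between the muscles, in level or in type effect. Its recovery and false calls hold for such data only and do not carry over to the real libraries. Each standard error (SE) is the absolute log2 difference divided by the square root of edgeR's F statistic. Ratios with a class at 0 use 3 counts. Gene positions are from GENCODE M21 (mm10). All members are described; from each pathway list up to 4 genes with the largest ratios are named, and Hk2 and Bsg were named after their values were seen. The members and lists were chosen with earlier results of these data known.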

Additional observations from a re-analysis of the deposited data

Results flagged for a closer look

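Pdk4 went opposite ways in the 2 muscles: the log2 ratio of Myh2 over Myh4 nuclei was -0.93 in plantaris and 0.72 in gastrocnemius, with counting intervals that both exclude 0. The difference was not tested, since each muscle has 1 library. Slc16a1 went opposite ways in 2 myosin types: the log2 ratio of plantaris over gastrocnemius was 0.64 in Myh4 nuclei and -1.62 in Myh1 nuclei. This difference was not tested either. Read cluster by cluster, Slc16a1 in Myh4 nuclei was lower in plantaris in 5 of 9 clusters and higher in 3, cluster 3 among the latter. In cluster 3, which holds Myh4 and Myh1 nuclei of both muscles, Slc16a1 had 31.1 CPM in plantaris and 22.7 CPM in gastrocnemius Myh4 nuclei, and 29.9 CPM in plantaris and 81.7 CPM in gastrocnemius Myh1 nuclei, from 38 and 12 and from 62 and 22 UMIs.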

How the results depend on the processing

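No called value changed sign under an alternative; of the type differences of members 261 of 270 values kept the sign of the main one, and of the ratios between muscles 274 of 293. The genes called between Myh2 and Myh4 nuclei, 2053, became 1124 with no replicate block, 1321 with the purest nuclei and 1232 with nuclei thinned to 1000 UMIs. Those between Myh1 and Myh4 nuclei, 1107, became 396 with no replicate block, 720 with DESeq2 and 711 when thinned. Those between Myh2 and Myh1 nuclei, 142, became 3 with no replicate block, 258 with no filter on low counts, 76 with the purest nuclei and 57 when thinned. Purest nuclei and thinning leave fewer UMIs; the cause of the other changes was not tested. The block pairs sums of 1 library. With 1 library per muscle, no paired analysis between the muscles was possible. The labels also do not say that both libraries come from the same mice.

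Genes past 2-fold between plantaris and gastrocnemius fell in number with 100 or more UMIs, where fewer genes are compared: 780 in all myonuclei (1515 at 20 or more UMIs), 643 in Myh4 (1392), 331 in Myh1 (1349), 197 in Myh2 (988) and 314 in non-muscle nuclei (1100). Between myonuclei and non-muscle nuclei they were 2566 (4379). Thinning gave 783 in Myh1 and 546 in Myh2 nuclei, and the purest Myh2 nuclei gave 647. Depth limits Pdp1, Slc16a3 and Pdk3 most, which have 10 or fewer UMIs in gastrocnemius Myh2 nuclei. No fit was run with 1 library left out. The values for that case are plain ratios of CPM within the other library, with no test, and they are among the 270 values of type differences.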
